A study of Mus musculus with 18 samples.

Results

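Glucose transport and glycolysis were followed through 10 genes, picked by gene symbol out of 32699 symbols in the count table. They were the transporter gene Slc2a1 and the enzyme genes Hk2, Gpi1, Pfkl, Pfkp, Aldoa, Gapdh, Pgk1, Eno1 and Ldha. In PyMT-BO1 mouse breast cancer cells, the mRNA of Pfkl fell by 26.9% and that of Pgk1 fell by 23.8% in docetaxel, averaged over 3 lines. Pgk1 mRNA was higher in cells with functional integrin β3 than in both other lines, in docetaxel and in DMSO. Hk2 mRNA fell by 25.2% once 2 Δβ3 libraries rich in heart muscle transcripts were left out, and its change did not pass the test with them. Slc2a1 and Gpi1 passed the test for docetaxel in no line. None of the 10 genes passed the test for a response to docetaxel that differs between lines. Few symbols of any kind did, 0% to 0.0412% with 18 libraries and 0% to 2.30% with 16.

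Glycolysis turns glucose into pyruvate, which lactate dehydrogenase can reduce to lactate. Glucose enters through transporters such as GLUT1, hexokinase traps it as glucose 6-phosphate, and phosphofructokinase commits it to the pathway. Many tumour cells run the pathway at a high rate even with oxygen, and its genes are known targets of the transcription factors HIF-1 and MYC.

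The cells were PyMT-BO1, a luminal B-like mouse breast cancer line of C57BL/6 background, and every culture lacked the cells' own integrin β3 through a knockout. By retrovirus they had been given hβ3 (a functional human integrin β3), Δβ3 (a mutant without signalling function) or pMx (the empty vector). Each of these 3 lines was treated for 24 h with 10 nM docetaxel, a drug that stabilises microtubules, or with its vehicle DMSO, in 3 cultures per group. There was 1 line per construct, so a difference between lines holds all that sets those lines apart, and p-values measure the spread between cultures.

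The 18 libraries held 7972612 to 18961392 counts each. Levels are given as CPM, counts scaled to a common library size. Itgb3 was at 32.9 to 130.5 CPM in libraries of the lines given a β3 construct, against 0.322 to 1.30 CPM in pMx libraries. Of 11 luminal epithelial markers, only 3 had enough counts to be tested. In single libraries 3 to 8 were above 0, 10 were above 0 in some library and Gata3 was at 0 in all libraries. The sum of the 11 ran from 1190.0 to 3413 CPM and was lowest in culture 2 of Δβ3 docetaxel. Heart muscle markers, of which 21 of 22 were above 0 in some library and Nppb was at 0 in all, reached a sum of 47114 CPM in culture 2 of Δβ3 docetaxel and of 5642 CPM in culture 1 of Δβ3 DMSO. The other 16 libraries held 182 to 2371 CPM of them. Each result below was therefore also computed from those 16 libraries, which is called the 16-library fit.

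The 10 genes fell into 5 that were well counted and 5 that were not. Slc2a1, Hk2, Pfkl and Pgk1 each had 1 transcript model in the table, and 99.4% of the counts of Gpi1 sat in 1 of its 2 models. Per kilobase of that main model, the mean level over all libraries was 573 CPM ± 150.4 (SD, n = 18) for Pgk1, 227 ± 19.8 for Gpi1, 218 ± 34.9 for Slc2a1, 161 ± 33.7 for Pfkl and 57.8 ± 23.6 for Hk2. Pgk1 lay above the other 4 in range, from 360.0 to 871 CPM per kilobase, while the ranges of Gpi1, Slc2a1 and Pfkl overlapped. Hk2 had the lowest mean. Its range of 34.3 to 137 overlapped those of Pfkl and Slc2a1 only through culture 2 of Δβ3 docetaxel. Before division by length, Hk2 was at 753 CPM there and at 189 to 449 CPM in the other libraries. Pfkp, Aldoa, Gapdh, Eno1 and Ldha had 2 to 4 models and means of 1.21 to 7.44 CPM per kilobase. Gapdh, the enzyme gene of the glyceraldehyde 3-phosphate step, had only 6 to 96 counts per library. Where a read matched more than 1 model it may have gone uncounted, so these low counts do not show low expression. Gapdh, Eno1, Aldoa, Ldha and Pgk1 also have close copies elsewhere in the mouse genome that could share their reads, so the values of these genes are uncertain to that extent.

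On mm10, Slc2a1 lies on chromosome 4, 119108711 to 119137983, plus strand, and is overlapped by the microRNA gene Mir1957a and the antisense genes Gm12867 and Gm12868. Hk2 lies on chromosome 6, 82725025 to 82774454, minus strand, and is overlapped by the antisense gene Gm17034. Gpi1 lies on chromosome 7, 34201330 to 34230336, minus strand, and is overlapped on the other strand by the long noncoding RNA gene Gm26762. No source used here states the strand setting of the counting, so reads of these partners could not be told apart from theirs. Pfkl, on chromosome 10, 77986947 to 78010083, minus strand, and Pgk1, on chromosome X, 106187100 to 106203699, plus strand, had no overlapping gene.

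The 250 bases before the RefSeq start of 3 of the well-counted genes are shown, those of Pgk1 and Hk2, which were called in docetaxel and between lines (Hk2 with 16 libraries only), and that of Gpi1, which passed no test. Pfkl, also called in both, is not shown because its RefSeq window lies inside the gene as GENCODE vM21 annotates it. The sequences shown are RefSeq sequences on GRCm38.p6, given 5′ to 3′ on the gene's strand. Capitals mark ACGTG or its reverse complement CACGT, 1 form of the core of HIF binding sites. The form GCGTG was not looked for. The windows are chrX:106186850-106187099 on the plus strand for Pgk1, chr6:82774455-82774704 on the minus strand for Hk2 and chr7:34230337-34230586 on the minus strand for Gpi1.
Pgk1: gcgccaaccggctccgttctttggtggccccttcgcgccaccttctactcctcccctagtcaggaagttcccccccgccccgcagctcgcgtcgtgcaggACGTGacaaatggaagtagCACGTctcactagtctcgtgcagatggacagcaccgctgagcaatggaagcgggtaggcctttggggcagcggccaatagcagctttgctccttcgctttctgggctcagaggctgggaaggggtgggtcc
Hk2: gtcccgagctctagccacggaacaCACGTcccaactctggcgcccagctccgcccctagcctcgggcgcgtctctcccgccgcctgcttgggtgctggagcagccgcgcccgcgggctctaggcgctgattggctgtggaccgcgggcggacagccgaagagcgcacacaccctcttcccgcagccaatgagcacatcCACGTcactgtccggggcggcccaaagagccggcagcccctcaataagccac
Gpi1: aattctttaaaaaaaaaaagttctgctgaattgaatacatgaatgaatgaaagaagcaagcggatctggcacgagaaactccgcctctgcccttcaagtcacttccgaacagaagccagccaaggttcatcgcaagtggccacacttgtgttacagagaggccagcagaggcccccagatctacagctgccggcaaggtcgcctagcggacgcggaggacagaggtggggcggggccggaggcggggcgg
Pgk1 had matches beginning 150 and 131 bases before its start, Hk2 had them at 226 and 52 bases, and Gpi1 had none. Slc2a1 had 1 match, 36 bases before its start, and Pfkl had no ACGTG on either strand. Over all windows of the 10 genes, 6 of 15 held ACGTG on either strand, belonging to 5 genes (Slc2a1, Hk2, Pgk1, Aldoa and Ldha). ACGTG was found in 16.6% of the 32851 windows of this length in the table. CACGTG, which contains ACGTG, was found in 6.02% of them and, among the 10 genes, only in a window of Ldha. A match is a run of letters and does not show binding.

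**Figure D1:**
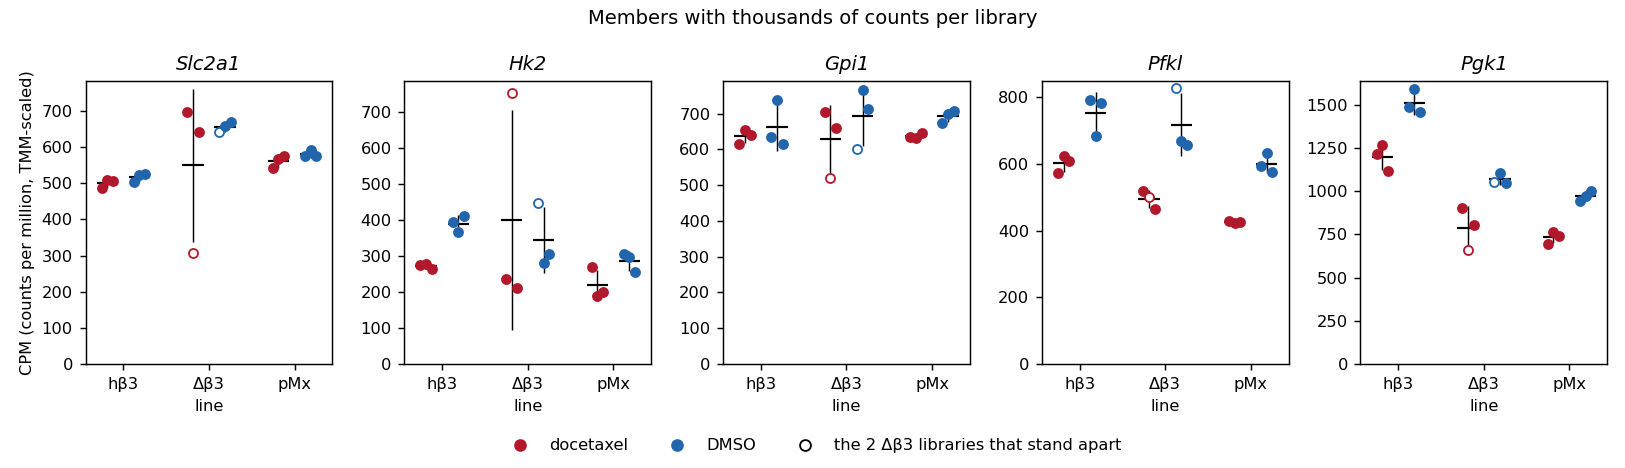
CPM of the 5 well-counted genes in the 18 libraries, with docetaxel (red) left of DMSO (blue) for the hβ3, Δβ3 and pMx lines. Each point is 1 culture, bars are means and SD (n = 3), and open points are Δβ3 docetaxel culture 2 and Δβ3 DMSO culture 1. Pfkl and Pgk1 sit lower in docetaxel in every line without overlap, and in the open docetaxel point Hk2 is at 753 CPM and Slc2a1 at 307 CPM. Within single lines, 8.99% to 17.7% of all symbols lay lower without overlap.

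The first question was whether docetaxel changes the mRNA of these genes. Averaged over the 3 lines, edgeR called 2 of the 10 genes lower with all 18 libraries (Pfkl and Pgk1) and none higher. Of all 12145 tested symbols, 7.67% were called lower. Either direction together, 15.6% of all symbols were called. In the 16-library fit 5 were called lower (Hk2, Pfkl, Aldoa, Pgk1 and Eno1) and none higher. Of 12356 symbols, 14.3% were called lower and 30.1% in either direction. The log2 change of 9 of the 10 genes was below 0 in both fits, with Pfkp as the exception. Its median over the 10 genes was -0.26 with 18 libraries, against 0.06 over all symbols, and -0.33 in the 16-library fit, against 0.02. Overlap of cultures is also given below, with 18 libraries. Of all symbols, 14.1% lay lower in docetaxel without overlap in hβ3, 8.99% in Δβ3 and 17.7% in pMx. The shares that lay higher without overlap were 14.9%, 9.16% and 17.4%. CPM values are shares of the RNA of a bulk sample, so they do not measure cell number or RNA per cell. A smaller share of cells with a transcript and less of it in each cell cannot be told apart.

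Slc2a1 encodes GLUT1, the basal glucose transporter of many cells. It had 486, 509.8 and 506 CPM in hβ3 docetaxel and 502, 522 and 524 CPM in hβ3 DMSO. In Δβ3 it had 697, 307 and 642 CPM in docetaxel and 641, 658 and 669 CPM in DMSO, and in pMx 541, 568 and 576 CPM in docetaxel and 575, 592 and 574 CPM in DMSO. Docetaxel and DMSO cultures overlapped in each line, and only Δβ3 docetaxel culture 2 stood far from its group. The mean log2 change was -0.12 ± 0.11 (SE, edgeR adjusted p = 0.543) with 18 libraries. With 16 libraries it was -0.01 ± 0.04 (adjusted p = 0.811), with a 95% interval of -0.09 to 0.06.

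Hk2 encodes hexokinase 2, an inducible form of the enzyme that sits on mitochondria. It had 274, 279 and 264 CPM in hβ3 docetaxel, against 394, 366 and 411 CPM in hβ3 DMSO. It had 235, 753 and 212 CPM in Δβ3 docetaxel, against 449, 279.6 and 305 CPM in Δβ3 DMSO, and 269, 189 and 199 CPM in pMx docetaxel, against 306, 297 and 254 CPM in pMx DMSO. The hβ3 groups did not overlap, the pMx groups overlapped through docetaxel culture 1, and in Δβ3 the highest culture of all 18 was docetaxel culture 2. With 18 libraries the mean log2 change was -0.23 ± 0.21 (adjusted p = 0.507). With 16 libraries Hk2 fell by 0.42 ± 0.06 on the log2 scale (adjusted p = 3.46e-05), so that its mRNA fell by 25.2%.

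In the 2 libraries with the most heart muscle marker counts, Hk2 was at its 2 highest values, 753 and 449 CPM. The sum of these markers was 303 to 47114 CPM in Δβ3 docetaxel cultures and 443 to 5642 CPM in Δβ3 DMSO cultures. In hβ3 it was 182 to 735 CPM in docetaxel and 215 to 492 CPM in DMSO, and in pMx 220 to 2371 CPM in docetaxel and 413 to 2063 CPM in DMSO. Culture 2 of Δβ3 docetaxel also had the highest sums of fibroblast (1140 CPM), endothelial (617 CPM), leukocyte and macrophage (188 CPM), erythroid (179 CPM) and basal or myoepithelial (147 CPM) markers. Its sums of skeletal muscle (5.12 CPM) and adipocyte markers (0 CPM) were not the highest. The cause of the high Hk2 values was not tested. Without the 2 libraries the Hk2 change in Δβ3 was -0.38 ± 0.13 (adjusted p = 0.0584), while with them it was 0.21 ± 0.36 (adjusted p = 0.732). For Slc2a1 the low value in Δβ3 docetaxel culture 2, 307 CPM, lay below the 486 to 697 CPM of the other 17.

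**Figure D2:**
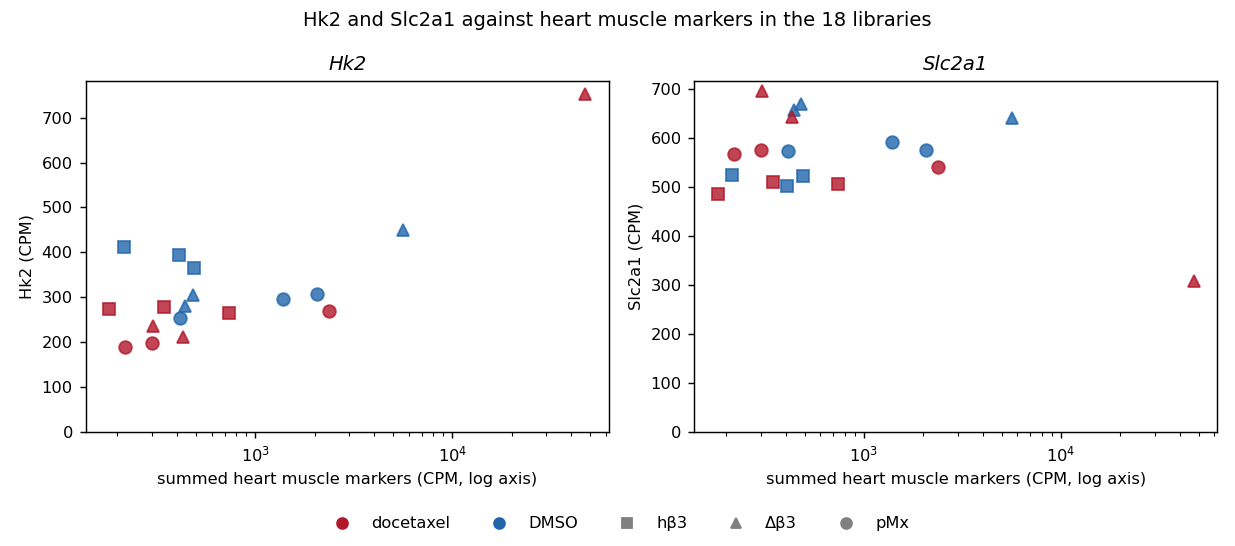
Hk2 (left) and Slc2a1 (right) in CPM against the summed CPM of the heart muscle markers on a log axis, for the 18 libraries, coloured by treatment and shaped by line. The library at 47114 CPM of markers has the highest Hk2 value and the lowest Slc2a1 value, and the one at 5642 CPM has the second highest Hk2 value.

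Gpi1 encodes glucose-6-phosphate isomerase, which makes fructose 6-phosphate. It had 616, 653 and 640.1 CPM in hβ3 docetaxel and 636, 737 and 615 CPM in hβ3 DMSO. Values were 705, 519 and 660.3 CPM in Δβ3 docetaxel and 602, 767 and 712 CPM in Δβ3 DMSO, and 635, 633 and 645 CPM in pMx docetaxel and 675, 699.6 and 709 CPM in pMx DMSO. The groups overlapped in hβ3 and Δβ3, and in pMx the 3 docetaxel cultures lay just below the 3 DMSO cultures. The mean log2 change was -0.11 ± 0.07 (adjusted p = 0.372) with 18 libraries and -0.09 ± 0.04 (adjusted p = 0.12) in the 16-library fit.

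Pfkl encodes the liver-type subunit of phosphofructokinase 1, the main control point of glycolysis. It had 573, 625 and 609 CPM in hβ3 docetaxel, against 794, 683 and 785 CPM in hβ3 DMSO. In Δβ3 it had 519.5, 501 and 466 CPM in docetaxel, against 829, 669 and 658 CPM in DMSO. In pMx it had 431, 422 and 427 CPM in docetaxel, against 595, 634 and 576 CPM in DMSO. No docetaxel culture reached the lowest DMSO culture of its own line. Pfkl fell by 0.45 ± 0.07 on the log2 scale (adjusted p = 0.000157), so that its mRNA fell by 26.9%, and it fell by 0.41 ± 0.04 in the 16-library fit (adjusted p = 3.77e-08).

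Pgk1 encodes phosphoglycerate kinase 1, which makes the first ATP of the pathway. It had 1212, 1267 and 1114 CPM in hβ3 docetaxel, against 1484, 1589 and 1456 CPM in hβ3 DMSO. In Δβ3 it had 901, 657 and 806 CPM in docetaxel, against 1053, 1106 and 1044 CPM in DMSO. In pMx it had 696, 765 and 742 CPM in docetaxel, against 941, 973 and 1002 CPM in DMSO. As for Pfkl, the docetaxel and DMSO cultures of a line did not overlap in any line. Pgk1 fell by 0.39 ± 0.07 (adjusted p = 0.000789), so that its mRNA fell by 23.8%, and it fell by 0.35 ± 0.04 in the 16-library fit (adjusted p = 2.95e-07).

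Aldoa encodes aldolase A, which splits fructose 1,6-bisphosphate. It had 10.1, 9.68 and 11.3 CPM in hβ3 docetaxel, against 13.8, 12.6 and 11.7 CPM in hβ3 DMSO, 8.72, 11.3 and 7.70 CPM in Δβ3 docetaxel, against 10.1, 8.84 and 11.8 CPM in Δβ3 DMSO, and 7.40, 8.12 and 9.18 CPM in pMx docetaxel, against 9.68, 10.8 and 11.1 CPM in pMx DMSO. The hβ3 and pMx groups did not overlap, and the Δβ3 groups did. The mean log2 change was -0.27 ± 0.11 (adjusted p = 0.109) with 18 libraries and -0.31 ± 0.09 (adjusted p = 0.0135) in the 16-library fit.

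Eno1 encodes enolase 1, which makes phosphoenolpyruvate. It had 14.0, 11.4 and 17.2 CPM in hβ3 docetaxel and 18.2, 16.1 and 18.4 CPM in hβ3 DMSO. It had 10.0, 14.3 and 13.1 CPM in Δβ3 docetaxel and 7.69, 14.7 and 17.6 CPM in Δβ3 DMSO, and 12.6, 13.2 and 11.3 CPM in pMx docetaxel and 13.8, 16 and 17.7 CPM in pMx DMSO. The pMx groups alone did not overlap, and the lowest culture of all was Δβ3 DMSO culture 1. Eno1 had a mean log2 change of -0.26 ± 0.14 (adjusted p = 0.26) with 18 libraries and fell by 0.38 ± 0.10 in the 16-library fit (adjusted p = 0.0038).

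Pfkp encodes the platelet-type subunit of phosphofructokinase 1. It ran from 3.02 to 5.17 CPM in hβ3 docetaxel, against 3.11 to 3.90 CPM in hβ3 DMSO, and from 6.32 to 7.40 CPM in pMx docetaxel, against 4.41 to 5.28 CPM in pMx DMSO. Its docetaxel cultures lay above the DMSO cultures in pMx and overlapped them in hβ3 and Δβ3. The mean log2 change was 0.34 ± 0.16 (adjusted p = 0.169) with 18 libraries and 0.23 ± 0.14 (adjusted p = 0.238) in the 16-library fit. Gapdh ran from 0.931 to 3.64 CPM over the docetaxel cultures and from 1.82 to 5.95 CPM over the DMSO cultures. Ldha, the gene of lactate dehydrogenase A, ran from 1.74 to 3.79 CPM in docetaxel and from 1.68 to 4.32 CPM in DMSO. Both overlapped between treatments, and their adjusted p was 0.247 and 0.43 with 18 libraries and 0.241 and 0.158 in the 16-library fit.

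**Figure D3:**
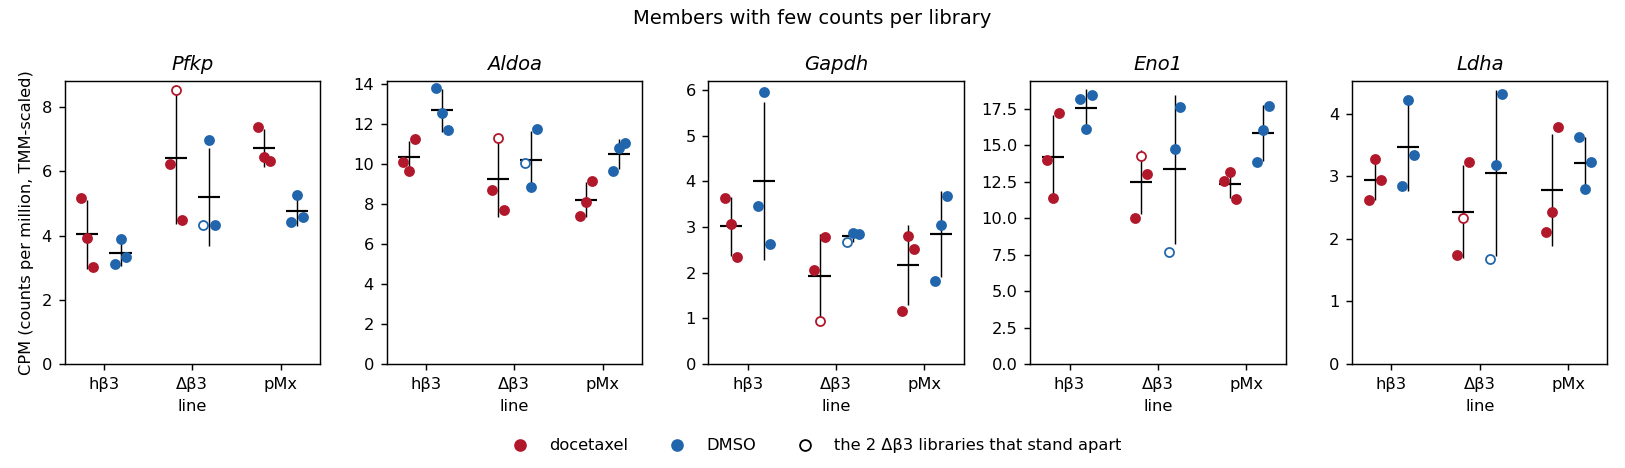
CPM of the 5 genes with few counts per library, laid out with docetaxel (red) left of DMSO (blue) for the hβ3, Δβ3 and pMx lines. Points are cultures, bars are means and SD (n = 3), and open points are Δβ3 docetaxel culture 2 and Δβ3 DMSO culture 1. Aldoa lies lower in docetaxel in hβ3 and pMx without overlap, and Pfkp lies higher in docetaxel in pMx, while Gapdh and Ldha overlap between treatments in every line. Of all symbols, 14.1% lay lower without overlap in hβ3 and 17.7% in pMx, and 17.4% lay higher in pMx.

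The next question was whether the response depends on integrin β3. With 18 libraries edgeR called 0 of the 10 genes in hβ3 (2 at an unadjusted p under 0.05, and 1 by DESeq2), where 0.239% of all symbols fell, 2 fell in Δβ3 (3.53% of all) and 1 fell in pMx (1.70% of all). In the 16-library fit 3 fell in hβ3 (Hk2, Pfkl and Pgk1, where 5.17% of all symbols fell), 2 in Δβ3 (Pfkl and Pgk1, where 5.28% fell) and 3 in pMx (Hk2, Pfkl and Pgk1, where 11% fell). In neither fit was any of the 10 genes called higher in a line, though Pfkp lay higher in pMx without overlap. In hβ3, Pfkl changed by -0.32 ± 0.11 on the log2 scale (adjusted p = 0.256) and Pgk1 by -0.33 ± 0.12 (adjusted p = 0.262). At 18 libraries Pfkl fell by 0.54 ± 0.11 in Δβ3 (adjusted p = 0.0109) and by 0.50 ± 0.11 in pMx (adjusted p = 0.0212), and the pMx call was lost when any 1 of the 6 pMx libraries was left out (adjusted p up to 0.113). The Pfkl call in Δβ3 was lost when only the Δβ3 groups were fitted (-0.52, adjusted p = 0.587). That fit called 0 of all symbols. Pgk1 fell by 0.44 ± 0.12 in Δβ3 (adjusted p = 0.0356) and changed by -0.40 ± 0.12 in pMx (adjusted p = 0.0697). The Pgk1 call in Δβ3 was lost without any 1 of 13 single libraries, with adjusted p up to 0.0877.

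The difference in response between lines was tested directly, and edgeR called 0 of the 10 genes in any of the 3 pairs in either fit. None of the 10 had an unadjusted p under 0.05 there, and DESeq2 on 18 libraries called 0 as well. Over all symbols, 0.0165% passed for hβ3 minus pMx, 0.0412% for hβ3 minus Δβ3 and 0% for Δβ3 minus pMx with 18 libraries. With 16 libraries these shares were 2.30%, 0.591% and 0%. The lowest adjusted p among the 10 genes was 0.372, for Pfkl between hβ3 and pMx in the 16-library fit, where the log2 response differed by 0.18 with a 95% interval of -0.01 to 0.36. For Pgk1 the same difference was 0.08, with an interval of -0.10 to 0.26. For Hk2 it was -0.13 with an interval of -0.41 to 0.16, so for these genes the intervals also hold response differences of either sign or of 0.

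**Figure D4:**
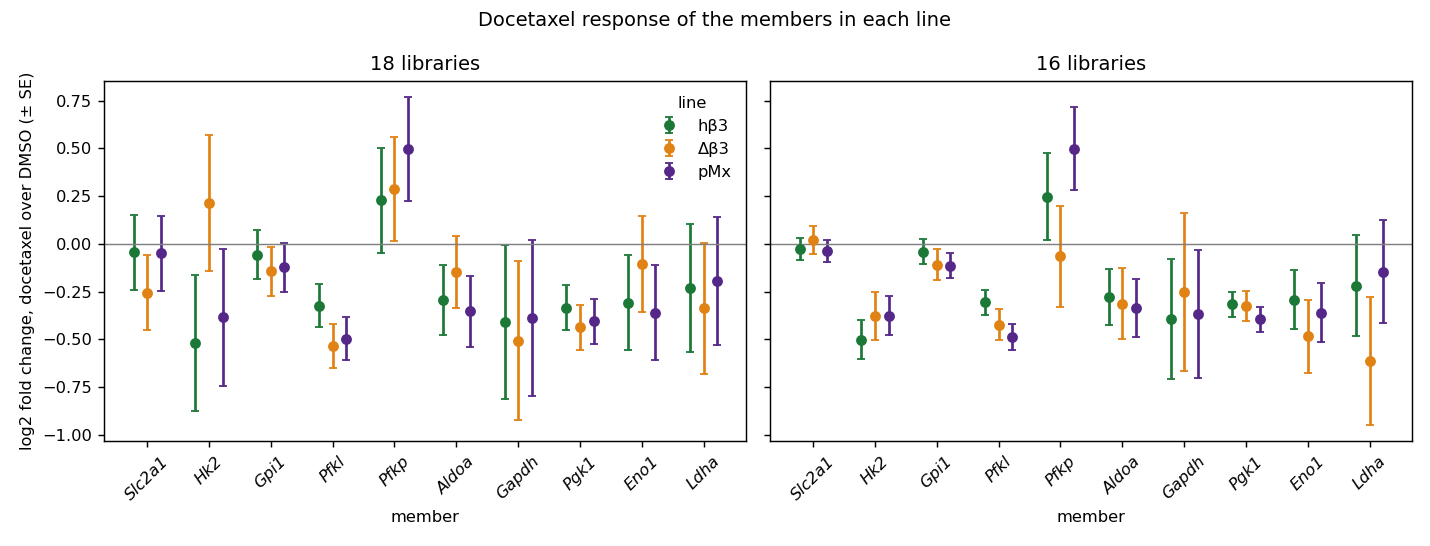
Log2 fold change of docetaxel over DMSO for each of the 10 genes in the hβ3 (green), Δβ3 (orange) and pMx (purple) lines, from 18 libraries (left) and from 16 (right). Points are edgeR estimates and bars their SE. Pfkl and Pgk1 lie below 0 in all 3 lines in both panels, and Hk2 in Δβ3 lies at 0.21 in the left panel and at -0.38 in the right one.

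The lines themselves were compared next, in DMSO and in docetaxel. In DMSO, Pgk1 had a mean of 1510 CPM ± 70.2 (SD, n = 3) in hβ3, 1068 ± 33.6 in Δβ3 and 972 ± 30.1 in pMx. In docetaxel it had 1198 ± 77.7 in hβ3, 788 ± 123 in Δβ3 and 734 ± 35.0 in pMx. The hβ3 cultures lay above every culture of both other lines in the same medium. Of all symbols, 19.8% in DMSO and 23.5% in docetaxel lay higher in hβ3 than in pMx without overlap. Against Δβ3 these shares were 17% and 16.5%. With 18 libraries Pgk1 was higher in hβ3 than in pMx by 0.64 ± 0.12 on the log2 scale in DMSO (adjusted p = 0.00199) and by 0.71 ± 0.12 in docetaxel (adjusted p = 0.00092). Against Δβ3 it was higher by 0.50 ± 0.12 in DMSO (adjusted p = 0.00894) and by 0.60 ± 0.12 in docetaxel (adjusted p = 0.00331). Pgk1 kept these 4 calls when any single library was left out, with adjusted p up to 0.0389. The call against Δβ3 in docetaxel was lost when only those 2 groups were fitted (0.56, adjusted p = 0.1). In the 16-library fit the 4 differences were 0.48 to 0.69. Rn45s, the ribosomal RNA precursor, held 10.9% to 33% of the counts in hβ3 libraries and 6.59% to 9.81% in pMx libraries. In Δβ3 it held 41.5% in DMSO culture 1, 23.6% in docetaxel culture 2 and 6.92% to 10% in the other cultures. Leaving out Rn45s counts changed no call of the 10 genes, and other effects of this difference between lines were not tested.

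Pgk1 was the only gene of the 10 called between hβ3 and pMx in DMSO with 18 libraries, where 4.88% of all symbols were higher and 9.02% were called in either direction. It was also the only one called against Δβ3 in DMSO (6.27% of all symbols higher) and against Δβ3 in docetaxel (4.38% higher). Against pMx in docetaxel Pfkl was higher too (4.63% of all symbols higher), with a mean of 602 CPM ± 26.6 in hβ3 and 426 ± 4.37 in pMx (SD, n = 3 each) and no overlap. That difference was 0.50 ± 0.11 (adjusted p = 0.00989), and the call was lost without hβ3 docetaxel culture 2 (adjusted p = 0.052).

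The 16-library fit called more of the 10 genes between lines. Of them, Hk2, Pfkl and Pgk1 were higher and Slc2a1 was lower in hβ3 than in pMx in DMSO, where 13.3% of all symbols were higher, 13.5% lower and 26.8% called in either direction. In docetaxel the same 3 were higher and Slc2a1 and Pfkp were lower than in pMx (15.2% of all symbols higher, 12.2% lower). Against Δβ3 in DMSO, Hk2 and Pgk1 were higher and Slc2a1 and Pfkp lower (11.1% higher, 12.2% lower). Against Δβ3 in docetaxel, Pfkl and Pgk1 were higher and Slc2a1 lower (9.60% higher, 10.3% lower). Hk2 was higher in hβ3 than in pMx by 0.43 ± 0.10 in DMSO (adjusted p = 0.00329) and by 0.30 ± 0.10 in docetaxel (adjusted p = 0.0332). Pfkl was higher by 0.30 ± 0.07 in DMSO (adjusted p = 0.00107).

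Slc2a1 ran the other way. Its mean in DMSO was 516 CPM ± 12 in hβ3, 656 ± 14.2 in Δβ3 and 580.4 ± 10.3 in pMx (SD, n = 3 each), and these 3 groups did not overlap. Of all symbols, 18.6% lay lower without overlap in hβ3 than in pMx and 15.9% lower than in Δβ3. Another 9.3% lay higher without overlap in Δβ3 than in pMx, and these shares may hold the same symbols. In the 16-library fit Slc2a1 differed in hβ3 from Δβ3 by -0.38 ± 0.06 in DMSO (adjusted p = 7.63e-05) and by -0.42 ± 0.06 in docetaxel (adjusted p = 1.88e-05). Against pMx the differences were -0.19 ± 0.06 in DMSO (adjusted p = 0.0157) and -0.18 ± 0.06 in docetaxel (adjusted p = 0.0228). With 18 libraries none of these 4 passed, with adjusted p of 0.289 to 0.737.

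Between Δβ3 and pMx, edgeR called 0 of the 10 genes in either medium in either fit, and DESeq2 called 0. At an unadjusted p under 0.05 there was 1 gene in each medium with 18 libraries, and 1 in DMSO and 3 in docetaxel in the 16-library fit. There, 0.0412% of all symbols were called in DMSO and 0.0247% in docetaxel with 18 libraries, and 0.332% and 0.453% in the 16-library fit. At 18 libraries Pgk1 differed in Δβ3 from pMx by 0.14 in DMSO, with a 95% interval of -0.10 to 0.37, and Pfkl by 0.26, with an interval of 0.03 to 0.48 (adjusted p = 0.473).

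**Figure D5:**
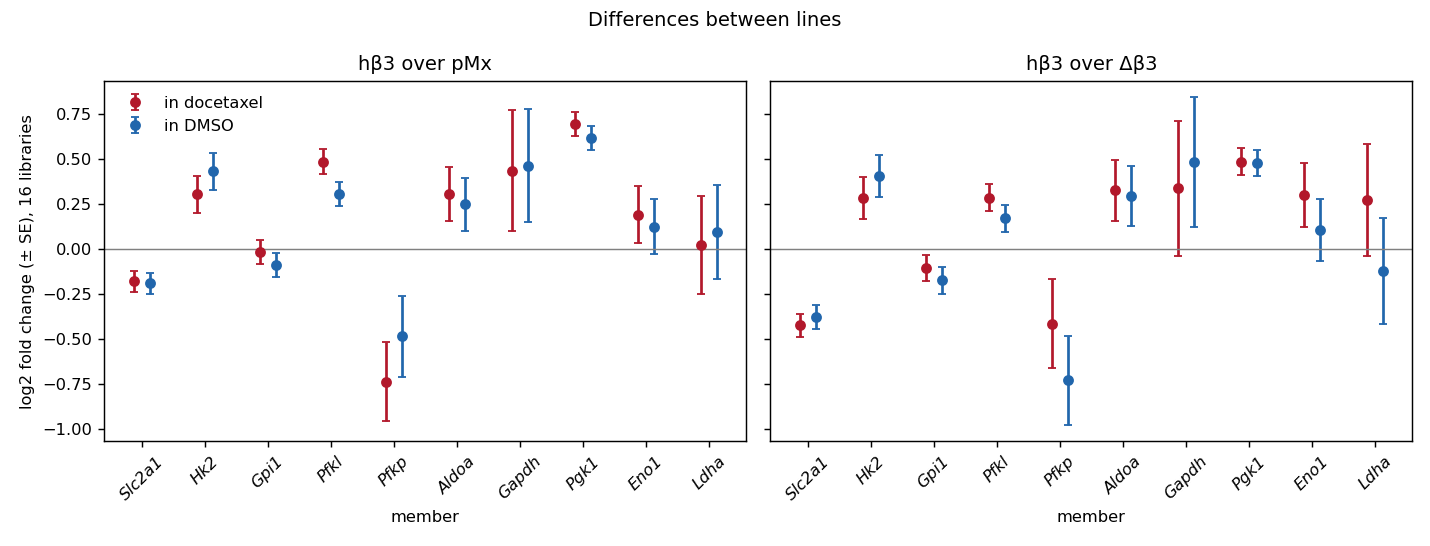
Log2 fold change of hβ3 over pMx (left) and of hβ3 over Δβ3 (right) for the 10 genes in docetaxel (red) and in DMSO (blue), from the 16-library fit. Points are edgeR estimates and bars their SE. Pgk1 lies at 0.48 to 0.69 in both panels and media, and Slc2a1 lies below 0 in all 4 comparisons.

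The rest of the pathway was described with lists of further genes. Of 21 other glycolytic enzymes and isoforms, 11 were tested, and in docetaxel 4 fell and 1 rose with 18 libraries, where 7.67% of all symbols fell and 7.90% rose. The 4 were Tpi1 (triose-phosphate isomerase, -0.34 ± 0.06, adjusted p = 0.00127), Pgam1 (phosphoglycerate mutase, -0.46 ± 0.09, adjusted p = 0.00147), Pkm (pyruvate kinase, -0.41 ± 0.08, adjusted p = 0.00295) and Eno1b (an enolase gene almost identical to Eno1, -0.37 ± 0.08, adjusted p = 0.00336), each on the log2 scale with SE. Hk1, a hexokinase of most tissues that was named after its value was seen, rose by 0.54 ± 0.15 (adjusted p = 0.0232). Pgam1 averaged 233 CPM in docetaxel and 313 CPM in DMSO over the lines, and Tpi1 1158 and 1458 CPM. The median log2 change of the tested genes of this list was -0.04, against 0.06 over all symbols. In DMSO, 3 of the 11 were higher in hβ3 than in pMx and none lower with 18 libraries, where 4.88% of all symbols were higher. With 16 libraries the same 3 were higher and Adpgk, named after its value was seen, was lower (-0.61 ± 0.22, adjusted p = 0.0404). In that fit 13.3% of all symbols were higher and 13.5% lower. The 3 were, with 18 libraries, Pgam1 (0.71 ± 0.15, adjusted p = 0.005), Eno1b (0.66 ± 0.14, adjusted p = 0.00422) and Tpi1 (0.37 ± 0.11, adjusted p = 0.0369).

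Of 17 genes of glucose, lactate and pyruvate transport, 7 were tested. With 18 libraries Slc2a13, a myo-inositol transporter of the GLUT family, was the only one called in docetaxel (1.25 ± 0.39, adjusted p = 0.0389). It was at 1.54 CPM in docetaxel and 0.580 CPM in DMSO. Of all symbols, 7.90% rose and 7.67% fell in docetaxel with 18 libraries. In the 16-library fit Slc2a13 rose (1.25 ± 0.32, adjusted p = 0.00349) and Slc16a1 of this list fell (-0.17 ± 0.05, adjusted p = 0.00665). There, 15.8% of all symbols rose and 14.3% fell. Slc2a5, a fructose transporter, was higher in hβ3 than in pMx in DMSO by 3.56 ± 0.72 (adjusted p = 0.00366), at 1.21 CPM in hβ3 and 0.0927 CPM in pMx. In that comparison 4.88% of all symbols were higher. Group means of Slc2a13 ran from 0.670 to 2.35 CPM in docetaxel and from 0.465 to 0.648 CPM in DMSO, low levels like that of Slc2a5. Of 20 regulators of glycolytic flux, 14 were tested. With 18 libraries only Arrdc4 (1.39 ± 0.43, adjusted p = 0.0356) rose in docetaxel, where 7.90% of all symbols rose. It averaged 2.57 CPM in docetaxel and 0.760 CPM in DMSO, with 1.43 to 12.7 CPM in Δβ3 docetaxel. In the 16-library fit Arrdc4 rose by 1.01 ± 0.30 (adjusted p = 0.0114) and Pfkfb2 by 0.24 ± 0.06 (adjusted p = 0.00526). Pfkfb1, named after its value was seen, fell there (-0.34 ± 0.11, adjusted p = 0.0214). In that fit 15.8% of all symbols rose and 14.3% fell. Pdk2, a kinase that shuts pyruvate out of the citric acid cycle, had a log2 change of 1.55 ± 0.52 (adjusted p = 0.0604) and rose by 1.00 ± 0.14 in the 16-library fit (adjusted p = 2.24e-05). Between hβ3 and pMx in DMSO edgeR called 0 genes of this list with 18 libraries, and 0 had an unadjusted p under 0.05. With 16 libraries 1 was higher and 2 were lower, among them Pdk2 (-1.46 ± 0.24, adjusted p = 0.000132). In that fit 13.3% of all symbols were higher and 13.5% lower.

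Of 24 genes of the HIF pathway and its targets outside glycolysis, 22 were tested, and in docetaxel 3 rose and none fell with 18 libraries, where 7.90% of all symbols rose. With 16 libraries 5 rose and 2 fell, where 15.8% of all symbols rose and 14.3% fell. Ndrg1, a stress-induced gene, rose by 0.67 ± 0.08 (adjusted p = 2.03e-05), Ddit4, an inhibitor of mTORC1 signalling, by 0.48 ± 0.12 (adjusted p = 0.0111) and Arnt, the partner of HIF-1α, by 1.44 ± 0.39 (adjusted p = 0.0181). Arnt averaged 0.998 CPM in docetaxel and 0.367 CPM in DMSO. By line, Ndrg1 averaged 63.1 CPM in docetaxel and 61.0 CPM in DMSO in hβ3, 51.0 and 25.1 CPM in Δβ3, and 37.9 and 19.7 CPM in pMx. It rose in Δβ3 (1.02 ± 0.14, adjusted p = 0.000399) and in pMx (0.94 ± 0.14, adjusted p = 0.000764), and its change in hβ3 was 0.05 ± 0.13. Ddit4 averaged 112 CPM in docetaxel and 55.4 CPM in DMSO in hβ3, 169 and 153 CPM in Δβ3, and 130.2 and 107 CPM in pMx, and rose in hβ3 (1.01 ± 0.21, adjusted p = 0.0216). With 18 libraries these responses did not pass the test of a difference between lines (adjusted p of 0.134 to 1), and with 16 both passed between hβ3 and each other line (adjusted p of 0.000155 to 0.00217). In DMSO, Ndrg1 was higher in hβ3 than in pMx by 1.63 ± 0.14 (adjusted p = 7.08e-07). Egln3, a prolyl hydroxylase that marks HIF for breakdown, differed by -1.12 ± 0.14 (adjusted p = 4.94e-05) and Ddit4 by -0.95 ± 0.21 (adjusted p = 0.00629), and so did Vegfa, named after its value was seen, by -1.88 ± 0.53 (adjusted p = 0.0344). This list thus had 1 gene higher and 3 lower with 18 libraries, where 4.88% of all symbols were higher and 4.13% lower. It had 4 higher and 5 lower with 16, where 13.3% of all symbols were higher and 13.5% lower. The median of the list was 0.24 in docetaxel and -0.19 between those lines.

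In the pentose phosphate list, 7 of 8 genes were tested and Rpia, ribose-5-phosphate isomerase, fell in docetaxel (-0.33 ± 0.09, adjusted p = 0.0148). Of 7 gluconeogenesis genes, 4 were tested and Pck2, the mitochondrial phosphoenolpyruvate carboxykinase, fell (-0.43 ± 0.13, adjusted p = 0.0364). Each was the only call of its list, where 7.67% of all symbols fell and 7.90% rose with 18 libraries. Of the glycogen list (10 of 11 tested) and the citric acid cycle list (13 of 16 tested), edgeR called 0 genes in docetaxel with 18 libraries, with 2 and 0 genes at an unadjusted p under 0.05. In the 16-library fit 6 of 14 tested citric acid cycle genes fell, among them Mdh2 (-0.24 ± 0.05, adjusted p = 0.000218), where 14.3% of all symbols fell. Between hβ3 and pMx in DMSO, edgeR called 0 genes of these 4 lists with 18 libraries, and only 1 pentose phosphate gene had an unadjusted p under 0.05. The 16-library fit called 10 of 14 citric acid cycle genes there (3 higher and 7 lower, among them Sdha at -0.42 ± 0.06, adjusted p = 1.17e-05), 3 pentose phosphate genes (1 higher and 2 lower), 2 glycogen genes (1 higher and 1 lower) and 1 gluconeogenesis gene (lower). Of all symbols 13.3% were higher and 13.5% lower in that fit.

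Genes with a pattern like that of the 10 were looked for among 7051 protein-coding symbols, by Pearson's r with the mean of the 10 genes over 6 group means of the 16-library fit. The 5 closest were Dnaaf2 (r = 0.997), Fhl3 (r = 0.995), Mllt1 (r = 0.995), U2af1 (r = 0.993) and Fpgs (r = 0.993). Among the 10 genes, Pfkl (r = 0.971) and Eno1 (r = 0.956) lay closest to their own mean, while Slc2a1 (r = -0.21) and Pfkp (r = -0.65) did not follow it. These are descriptions over 6 points that share libraries and treatment.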

How the data were processed

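RNA of 18 cultures (6 groups of 3) was measured by sequencing of libraries depleted of ribosomal RNA, with single reads of 50 bases. Per the submitters' processing notes, FastQC, HISAT2 and featureCounts were used on mm10, and no source used here gives their versions, parameters or strand setting. The deposited count table holds whole-number read counts for 63759 transcript models, with gene symbols and lengths, per the file headers. Counts were summed per symbol (32699 symbols, 13170 of them with more than 1 model).

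The test was edgeR's quasi-likelihood F-test in its robust form (version 4.0.16) in R 4.3.3, with TMM scaling, the filterByExpr filter and 1 coefficient per group. Two-sided p-values were adjusted by Benjamini-Hochberg over all tested symbols, and an adjusted p under 0.05 is a call. SE is the log2 fold change divided by the root of F, and 95% intervals use a normal approximation. CPM values use TMM-scaled library sizes. The biological coefficient of variation was 36.1% with 18 libraries and 13.2% with 16. Counting error is included in the model, and no interval is given for single counts. In data simulated for the mean docetaxel comparison, 15 of 100 symbols changed by 0.5 (log2) were recovered at the spread of the 18 libraries. At the spread of the 16 it was 70 of 100. Both simulations held 18 libraries, so the 70 does not give the recovery of the 16-library fit. False calls numbered 1 at the first spread and 8 at the second.

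The 10 genes, the lists and the 16-library fit were chosen with earlier results of these data known. From each further list, the up to 4 genes with the smallest p for docetaxel and up to 3 for hβ3 against pMx in DMSO could be named, and any called in a difference of response. Alternatives were RLE scaling, DESeq2 1.42.0, no filter, removal of Rn45s counts, fits of only the groups compared, a replicate block and leaving out libraries. Gene positions are from GENCODE vM21.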

Additional observations from a re-analysis of the deposited data

Results flagged for a closer look

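Some genes of the further lists responded to docetaxel differently between lines by edgeR's test of the difference itself, in the 16-library fit only. The log2 response of Ndrg1 in hβ3 minus that in pMx was -0.89 (adjusted p = 0.000155), and minus that in Δβ3 it was -0.90 (adjusted p = 0.00103). For Ddit4 these differences were 0.74 (adjusted p = 2e-04) and 0.72 (adjusted p = 0.00217), and for Egln3 0.59 (adjusted p = 0.0215) and 0.73 (adjusted p = 0.0198). Between hβ3 and pMx, Pdhb differed by 0.36 (adjusted p = 0.0409) and Sdhd by 0.46 (adjusted p = 0.022). With 18 libraries none of these passed, with adjusted p of 0.134 to 1. The cause was not tested.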

How the results depend on the processing

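Counts of the 10 genes called moved mainly with the libraries used. Without Δβ3 docetaxel culture 2 and Δβ3 DMSO culture 1, the count was 5 for mean docetaxel, 3 in pMx, 3 in hβ3, 4 between hβ3 and pMx and 4 between hβ3 and Δβ3 in DMSO, and 5 and 3 for those pairs in docetaxel. In 13 libraries, chosen after seeing the data by also dropping the 3 pMx libraries next highest in heart muscle markers, these counts were 5, 3, 3, 3, 4, 5 and 4. That leaves pMx DMSO with 1 culture, which is assumed to vary like the other groups. With only the groups compared these counts were 2 in pMx, 0 in Δβ3, 3 in hβ3 and 3 for hβ3 against pMx in DMSO. For hβ3 in docetaxel they were 4 against pMx and 0 against Δβ3. The fit of only the Δβ3 groups called 0 of all symbols, so its 0 is not particular to these genes. DESeq2 gave 2 in pMx, 1 in hβ3 and 2 for hβ3 against pMx in DMSO, and the unfiltered table gave 1 in Δβ3. The numbers of all symbols called also moved with the libraries used, as given for some comparisons below. The cause of these shifts was not tested. RLE scaling and removal of Rn45s counts changed no call of the 10 genes.

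With the replicate block 1 gene was called in Δβ3, since Pgk1 had an adjusted p of 0.0616, and no other call changed. The culture numbers did not pair the samples in a clear way: correlations of same-numbered cultures ran from -0.503 to 0.459, and 4 of 9 passed 0.1. The values -0.503 and -0.477 came from Δβ3 pairs that held a library rich in heart muscle markers. These correlations therefore cannot show that the cultures were unpaired. Of the docetaxel cultures, 4 of 9 lay closest to their own number.

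Leaving out 1 library at a time gave 2 to 4 genes for mean docetaxel, 0 to 2 in pMx, 1 to 3 in Δβ3 and 0 to 1 in hβ3. It gave 1 to 2 for hβ3 against pMx and against Δβ3 in DMSO, 1 to 3 against pMx and 1 to 2 against Δβ3 in docetaxel, and 0 to 0 elsewhere.

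The docetaxel change of Hk2 in Δβ3, 0.21 with 18 libraries, reversed to -0.38 in 13 libraries (edgeR adjusted p = 0.00221) and to -0.62 without Δβ3 docetaxel culture 2 (adjusted p = 0.0385), and over all single libraries left out it ran from -0.62 to 0.51. Hk2 in docetaxel, hβ3 against Δβ3, was -0.55 with 18 libraries and 0.28 in 13. The mean docetaxel change of Tigar was 0.25 with 18 libraries and -0.27 in 13.

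Over all symbols, the calls for mean docetaxel numbered 1891 with 18 libraries, 3716 with 16 and 3477 with 13. In Δβ3 they numbered 834, 1390 and 1699, with 0 from its own groups alone, and for hβ3 against pMx in DMSO 1095, 3313 and 2152. Pfkp, Aldoa, Gapdh, Eno1 and Ldha had only 6 to 275 counts per library, which limits their precision.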
